A study of Mus musculus with 6 samples.

Results

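The genes of MHC class I and of the machinery that loads it with peptide were followed in mouse hematopoietic stem cells (HSCs) taken from bone marrow. All 10 genes chosen by name were on the array: B2m, H2-K1, H2-D1, H2-T23, H2-Q4, Tap1, Tap2, Tapbp, Tapbpl and Nlrc5. They were found as every non-control probe whose RefSeq accession maps to 1 of these symbols, which gave 12 probes of 55681 and 10 genes of 36799. H2-K1 and Nlrc5 had 2 probes each, and the other 8 genes had 1. All 12 probes were well above background in both dyes on all 6 arrays, and all 10 genes entered the tests, which covered 22629 genes.

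The study asked how CDK6, a kinase of the cell cycle, regulates stem cell activation. It hybridised 3 untreated and 3 polyI:C-treated samples of Cdk6-/- HSCs, each labelled with Cy5, on 6 two-colour arrays. PolyI:C is a synthetic double-stranded RNA that sets off an interferon response. The Cy3 dye of each array held a pool of wild-type HSCs sorted from mice under the same treatment, so each of the 2 pools was read on 3 arrays and its spread is technical. The Cdk6 deletion is carried by every Cy5 sample and by no Cy3 sample, and no array had the dyes exchanged. Genotype and dye therefore cannot be told apart within a treatment. A dye bias of a probe cancels where treatments are compared only if it is the same on all arrays, which was not tested. Mouse strain, sex, age, dose, time after polyI:C and the number of mice per sample or pool are not given in the sources used here. Whether the samples came from separate mice is stated only in that they are called biological replicates.

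MHC class I molecules show fragments of a cell's own proteins to T cells and natural killer cells. A heavy chain pairs with beta-2-microglobulin in the endoplasmic reticulum, where the TAP transporter brings in peptides from the cytosol, tapasin ties the empty molecule to TAP, and the tapasin-related protein TAPBPR edits the bound peptide. NLRC5 drives transcription of these genes through the X and Y boxes of their promoters, and interferons raise many of them, partly through NLRC5 and IRF1.

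Promoters are shown because levels of the members differed unequally with polyI:C, and because interferon and NLRC5 act there. The RefSeq promoter table (GRCm38.p6) held windows for 7 of the 10 genes, and none for Tap2, Tapbpl or Nlrc5. The 250 bases before the annotated start follow, 5′ to 3′ along the gene, for the heavy chains H2-K1 and H2-D1, for B2m, and for Tap1 and Tapbp, whose levels in the wild-type pools were most raised with polyI:C among genes with a window. Capitals mark every match, on either strand, to an IRF core (AANNGAAA), a GAS element (TTCNNNGAA), a Y box (CCAAT), an X2 core (TGACG) or the kappaB consensus.
B2m, chr2:122147437-122147686, plus strand: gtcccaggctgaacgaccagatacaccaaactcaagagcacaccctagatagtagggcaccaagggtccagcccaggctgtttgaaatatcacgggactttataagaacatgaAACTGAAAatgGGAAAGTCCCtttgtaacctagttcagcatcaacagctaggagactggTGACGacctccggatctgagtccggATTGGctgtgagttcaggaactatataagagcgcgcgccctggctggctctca
H2-K1, chr17:34000334-34000583, minus strand: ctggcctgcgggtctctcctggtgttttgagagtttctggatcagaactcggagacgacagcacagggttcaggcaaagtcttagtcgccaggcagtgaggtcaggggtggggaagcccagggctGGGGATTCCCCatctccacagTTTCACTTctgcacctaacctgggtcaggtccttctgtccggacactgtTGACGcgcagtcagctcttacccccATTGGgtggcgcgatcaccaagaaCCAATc
H2-D1, chr17:35262844-35263093, plus strand: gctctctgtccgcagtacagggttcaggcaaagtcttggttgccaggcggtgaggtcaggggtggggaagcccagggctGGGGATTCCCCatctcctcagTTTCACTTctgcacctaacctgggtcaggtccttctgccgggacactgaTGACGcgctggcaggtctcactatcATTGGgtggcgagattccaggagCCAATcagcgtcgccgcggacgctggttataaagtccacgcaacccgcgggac
Tap1, chr17:34187306-34187555, plus strand: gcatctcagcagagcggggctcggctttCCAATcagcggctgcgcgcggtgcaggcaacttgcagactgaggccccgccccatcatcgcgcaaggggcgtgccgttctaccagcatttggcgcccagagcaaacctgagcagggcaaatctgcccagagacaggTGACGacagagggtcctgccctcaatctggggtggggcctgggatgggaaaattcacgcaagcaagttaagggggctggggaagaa
Tapbp, chr17:33919228-33919477, plus strand: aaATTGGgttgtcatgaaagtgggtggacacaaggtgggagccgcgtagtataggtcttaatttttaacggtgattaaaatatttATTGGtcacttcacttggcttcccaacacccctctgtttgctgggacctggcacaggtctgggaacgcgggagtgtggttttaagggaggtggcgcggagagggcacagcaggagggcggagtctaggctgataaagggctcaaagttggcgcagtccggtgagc

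The IRF core and the kappaB consensus matched in heavy chains and B2m, and neither matched in Tap1 or Tapbp. The IRF core was found in 5 of the 7 genes, B2m, H2-K1, H2-D1, H2-Q4 and H2-T23, and in 21.3% of all 32851 windows of the same length. The kappaB consensus was found in B2m, H2-K1, H2-D1 and H2-Q4, in overlapping pairs in the 3 heavy chains, and in 7.3% of all windows. The X2 core was found in those 4 genes and in Tap1, and in 17.8% of all windows. All 7 genes held a Y box, as did 33.8% of all windows, and none held a GAS element, which 7.0% of all windows held. In the windows of H2-K1 and H2-D1 shown, the IRF core lay 104 and 150 bases before the start, in each case on the start side of the kappaB matches. H2-K1 had another annotated window, not shown, where the IRF core lay 90 bases before the start. A match describes the sequence and is no measured binding site.

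Arrays of the same treatment differed from each other. For Xist, the RNA that coats the inactive X chromosome, the log2 ratio over the pool was 1.1, 0.42 and -3.98 in the untreated group (arrays 1, 2 and 3). It was 1.1, 1.87 and -3.42 in the polyI:C group, so both arrays numbered 3 were far below the rest. Ratios over all genes correlated at 0.49 to 0.54 among untreated arrays and at 0.56 between polyI:C arrays 1 and 2, but at 0.13 and 0.22 between polyI:C array 3 and those. Array 3 of polyI:C also had more spots well above background than the rest, 76.5% in Cy5 and 75.6% in Cy3, against 47.0 to 55.7% and 54.4 to 58.7%. It lay alone on its slide, whereas the other 2 slides each held both treatments. All 13 HSC markers tested were well above background in Cy5 on every array. So were all 11 granulocyte markers, which mark another cell type. In untreated samples 7 of 10 B cell markers and 4 of 11 granulocyte markers were lower in Cdk6-/- than in the pool (limma adjusted p under 0.05), against 9.93% of all genes. So were 6 of 10 endothelial and stromal markers, 3 of 11 monocyte and macrophage markers and 3 of 12 erythroid markers, with median log2 ratios of -1.05, -0.54 and -0.37. The median log2 ratio of the B cell markers ranged from -2.23 to -0.98 on the untreated arrays and from -0.26 to 0.18 on the polyI:C arrays. That of the granulocyte markers ranged from -1.54 to -0.21 and from 0.54 to 1.36. With polyI:C, 3 of 12 erythroid markers were called lower in Cdk6-/- than in the pool (median -0.95), against 0.65% of all genes. In the same comparison 1 of 11 monocyte and macrophage markers was called higher, against 0.318%. In the pools the summed level of the B cell markers, in log2, was 15.43 to 15.47 untreated and 13.82 to 14.69 with polyI:C, and that of the granulocyte markers was 18.45 to 18.95 and 16.39 to 16.83. In Cdk6-/- samples the B cell sums were 14.26 to 14.79 and 13.61 to 15.25, and the granulocyte sums 17.42 to 18.10 and 17.46 to 17.87. Megakaryocyte and platelet sums were 13.64 to 13.85 untreated and 15.03 to 15.33 with polyI:C in the pools. In Cdk6-/- samples they were 13.41 to 14.13 and 15.43 to 15.68. T and NK cell sums were 13.51 to 13.71 and 14.38 to 14.62 in the pools. In Cdk6-/- samples those were 13.40 to 13.55 and 14.29 to 14.41. Erythroid sums were 16.87 to 17.32 and 15.80 to 16.73 in the pools, and 16.94 to 17.32 and 14.76 to 16.58 in Cdk6-/- samples. What part these cells have in the values below was not tested, and in such samples fewer cells of a type and less RNA per cell cannot be told apart.

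Without treatment, Tapbpl was the only 1 of the 10 members, by representing probe, called between Cdk6-/- samples and the pool. Tapbpl encodes TAPBPR. Untreated arrays 1, 2 and 3 gave log2 ratios over the pool of 2.18, 1.20 and 1.33, all far above 0. The mean was 1.57 ± 0.53 (SD, n = 3), a 2.97-fold higher level in Cdk6-/- samples (SE 0.21, limma adjusted p = 0.0020). Genotype and dye cannot be told apart in this ratio. Tapbpl was 1 of 10 members called higher, against 3.05% of all genes tested, and no member was called lower, against 9.93%. The call held under all 15 alternative settings, with means from 1.27 to 2.04 and adjusted p from 0.000122 to 0.034, the lowest mean being that without untreated array 1.

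**Figure D1:**
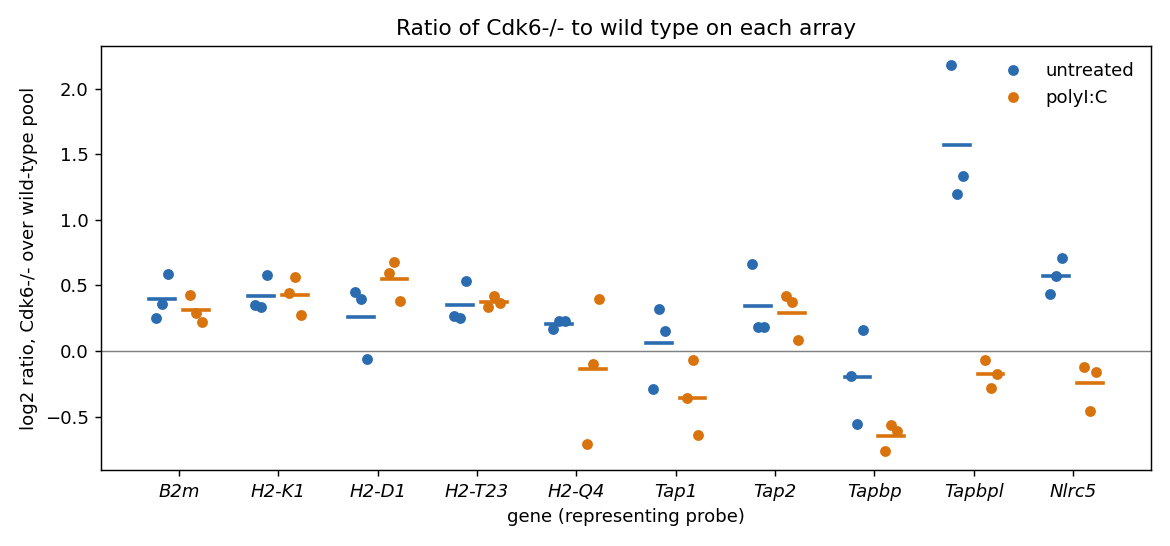
Log2 ratio of Cdk6-/- to the wild-type pool for each of the 10 genes (representing probe), with a point per array and a bar at the mean of 3 arrays, untreated in blue and polyI:C in orange. Tapbpl lies between 1.20 and 2.18 on the untreated arrays and between -0.28 and -0.06 on the polyI:C arrays.

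Nlrc5, the transactivator of the family, came next. Its representing probe had ratios of 0.44, 0.57 and 0.71 on the untreated arrays, all above 0 and close together. The mean of 0.57 (SE 0.17, limma adjusted p = 0.0502, n = 3) fell just short of the threshold. It passed without the filter on dim probes, with probes bright in both dyes, without polyI:C array 3, and with each array centred on its median. The second Nlrc5 probe did not show this difference: its ratios were 0.29, -0.24 and 0.10, on either side of 0, with a mean of 0.05 (adjusted p = 0.888).

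The heavy chains and B2m lay slightly above the pool in untreated cells, and none was called. B2m, the light chain of every class I molecule, had ratios of 0.25, 0.36 and 0.59 (mean 0.40, SE 0.17, limma adjusted p = 0.145, n = 3). H2-K1, a classical heavy chain that presents peptide to CD8 T cells, had ratios of 0.35, 0.34 and 0.58 with its representing probe (mean 0.42, adjusted p = 0.123). All 3 arrays lay above 0 for both genes. H2-D1, the other classical heavy chain here, had 0.45, 0.40 and -0.06 (mean 0.26, adjusted p = 0.369), with array 3 apart from the others. The non-classical chain H2-T23, which encodes the Qa-1 molecule read by natural killer cell receptors, had 0.27, 0.25 and 0.54 (mean 0.35, adjusted p = 0.187). H2-Q4, a non-classical chain of the Q region, had 0.17, 0.23 and 0.23 (mean 0.21, adjusted p = 0.565).

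Among the transport genes, Tap2 had ratios of 0.67, 0.18 and 0.19 (mean 0.35, SE 0.18, limma adjusted p = 0.235, n = 3), highest on untreated array 1. Tap2 forms the peptide transporter with Tap1. Tap1 had -0.29, 0.32 and 0.15 (mean 0.06, adjusted p = 0.866), and Tapbp, the gene of tapasin, had -0.19, -0.55 and 0.16 (mean -0.19, adjusted p = 0.534). Both lay on either side of 0. In all, 7 of 10 members were above 0 on every untreated array, against 20.9% of all genes, and the members' median ratio was 0.35 against -0.05 for all genes. At an unadjusted p under 0.05 the members numbered 4 of 10, against 28.5% of all genes.

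The size of the heavy chain ratios depended on the normalization. With each array centred on its median in place of loess, the means of B2m and the 4 heavy chains ran from 1.25 to 1.44 in untreated cells, 8 of 10 members were called, all but Tap1 and Tapbp, and 9 of 10 were above 0 on every array, against 47.4% of all genes. With loess they ran from 0.21 to 0.42, and with the scanner software's processed signals from 0.089 to 0.395. Centring shifted the all-gene median from -0.05 to 0.30, and the calls from 691 higher and 2248 lower genes to 4876 and 1330. The direction of B2m and of the heavy chains in untreated cells was the same in these 3 settings.

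**Figure D2:**
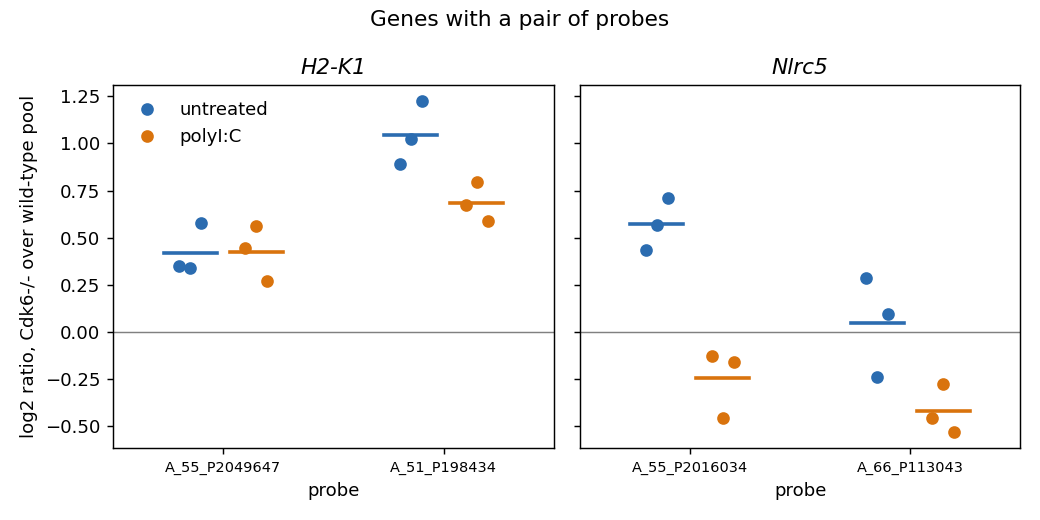
Log2 ratio of Cdk6-/- to wild type for the 2 genes with a pair of probes, each probe named on the x axis, with a point per array and a bar at the mean of 3 arrays. The second H2-K1 probe lies between 0.89 and 1.22 on untreated arrays, above the 0.34 to 0.58 of the representing probe.

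The pair of H2-K1 probes disagreed in size. The representing probe was the brighter, with a mean log2 intensity of 14.61 in the untreated pool against 12.75 for the second. The second probe had untreated ratios of 0.89, 1.02 and 1.22, each above the value of the representing probe on the same array. Fitted on its own, an alternative added after the data were seen, it was called (mean 1.05, SE 0.17, limma adjusted p = 0.0046, n = 3). Under polyI:C its ratios were 0.67, 0.79 and 0.59 (mean 0.68, adjusted p = 0.119). The heavy chain genes are close in sequence, the probes' own sequences were not used here, and which H2 transcripts each probe reads was not tested. The plot of the genes with a pair of probes shows both.

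After polyI:C no member was called, against 0.968% of all genes called by limma, 0.318% higher and 0.65% lower. At an unadjusted p under 0.05 there were 4 of 10 members, H2-K1, H2-D1, H2-T23 and Tapbp, against 13.4% of all genes. Tapbpl no longer lay above the pool: its ratios were -0.06, -0.28 and -0.17 (mean -0.17, SE 0.21, adjusted p = 0.775, n = 3). Those of Nlrc5 were -0.12, -0.45 and -0.16 (mean -0.25, adjusted p = 0.581), below all of its untreated ratios.

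Tapasin had the lowest mean of the family in treated cells. The ratios of Tapbp were -0.76, -0.56 and -0.61, close together and all below 0, with a mean of -0.64 (SE 0.18, limma adjusted p = 0.157, n = 3). Tap1 had -0.36, -0.07 and -0.64 (mean -0.35, adjusted p = 0.468), lowest on array 3. Tap1, Tapbp, Tapbpl and Nlrc5 were the 4 of 10 members below 0 on all 3 polyI:C arrays, against 21.6% of all genes. This too depended on the normalization. With median centring none of these 4 was below 0 on all 3 polyI:C arrays. The mean of Tapbp was then -0.007 (limma adjusted p = 0.988), and that of Tap1 was lower, at -0.06 (adjusted p = 0.914). Tap2 stayed above 0, with 0.42, 0.38 and 0.08 (mean 0.29, adjusted p = 0.533).

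The classical heavy chains remained above the pool without a call. H2-D1 had ratios of 0.59, 0.68 and 0.38 (mean 0.55, SE 0.18, limma adjusted p = 0.206, n = 3), and H2-K1 had 0.44, 0.56 and 0.27 (mean 0.43, adjusted p = 0.296). H2-T23 had 0.33, 0.42 and 0.37 (mean 0.37, adjusted p = 0.356), and B2m had 0.43, 0.29 and 0.22 (mean 0.31, adjusted p = 0.457). These 4 genes and Tap2 were above 0 on every polyI:C array, 5 of 10 members against 16.5% of all genes. H2-Q4 varied most within the group, with -0.71, -0.10 and 0.40 (mean -0.14, adjusted p = 0.829). With median centring H2-Q4 turned to 1.07 (adjusted p = 0.00542), and 5 members were called, B2m and the 4 heavy chains, as the median of all genes moved from -0.02 to 0.21.

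The genotype ratio of Tapbpl differed between treatments. The polyI:C mean minus the untreated mean was -1.74 (SE 0.30, limma adjusted p = 0.0216, n = 3 and 3), and the 3 treated ratios lay more than 1 log2 unit below the lowest untreated one. Tapbpl was 1 of 10 members called lower, against 0.199% of all genes, and no member was called higher, against 1.6%, so 1 of 10 in either direction, against 1.79%. Within slide 1 the difference was -1.82 and within slide 2 it was -1.48. The call was lost without untreated array 1 (-1.44, adjusted p = 0.0509) or 3 (-1.86, 0.0645), and without polyI:C array 1 (-1.80, 0.0646), 2 (-1.69, 0.0804) or 3 (-1.74, 0.0916). It was also lost without both arrays numbered 3 (-1.86, 0.146) and with the slide as a fixed block (-1.67, 0.128). The direction was the same in all of these.

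The ratio of Nlrc5 was also lower with polyI:C, without a call, by -0.82 (SE 0.24, limma adjusted p = 0.114, n = 3 and 3), with -0.70 within slide 1 and -1.02 within slide 2. Its second probe gave -0.47 (adjusted p = 0.387). Tapbp (-0.45, adjusted p = 0.430) and Tap1 (-0.42, adjusted p = 0.490) had differences of the same sign without a call, and for Tapbp the value was -0.75 within slide 1 and -0.01 within slide 2. In 3 of 10 members, Tapbpl, Nlrc5 and Tapbp, all polyI:C ratios were below all untreated ratios, against 8.48% of all genes. The other 6 members gave 0.29 for H2-D1, -0.35 for H2-Q4 and -0.08 to 0.02 for B2m, H2-K1, H2-T23 and Tap2, with limma adjusted p from 0.622 to 0.996.

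The channel levels show on which side these ratios moved. In the wild-type pools Tapbpl stood at 8.09, 8.41 and 7.69 on a log2 intensity scale without treatment and at 10.13, 10.0996 and 9.53 after polyI:C. The readings of the 2 pools did not overlap, and the mean was 1.86 log2 units or 3.62-fold higher with polyI:C. In Cdk6-/- samples Tapbpl stood at 10.26, 9.60 and 9.02 untreated and at 10.06, 9.82 and 9.36 treated, which overlapped throughout. Their difference was 0.12 (SE 0.40, limma adjusted p = 0.962, n = 3 and 3). Between treatments, each within its own dye, the level of Tapbpl therefore differed in the pools and not detectably in Cdk6-/- samples. How far its untreated ratio is a dye bias of the probe was not tested.

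**Figure D3:**
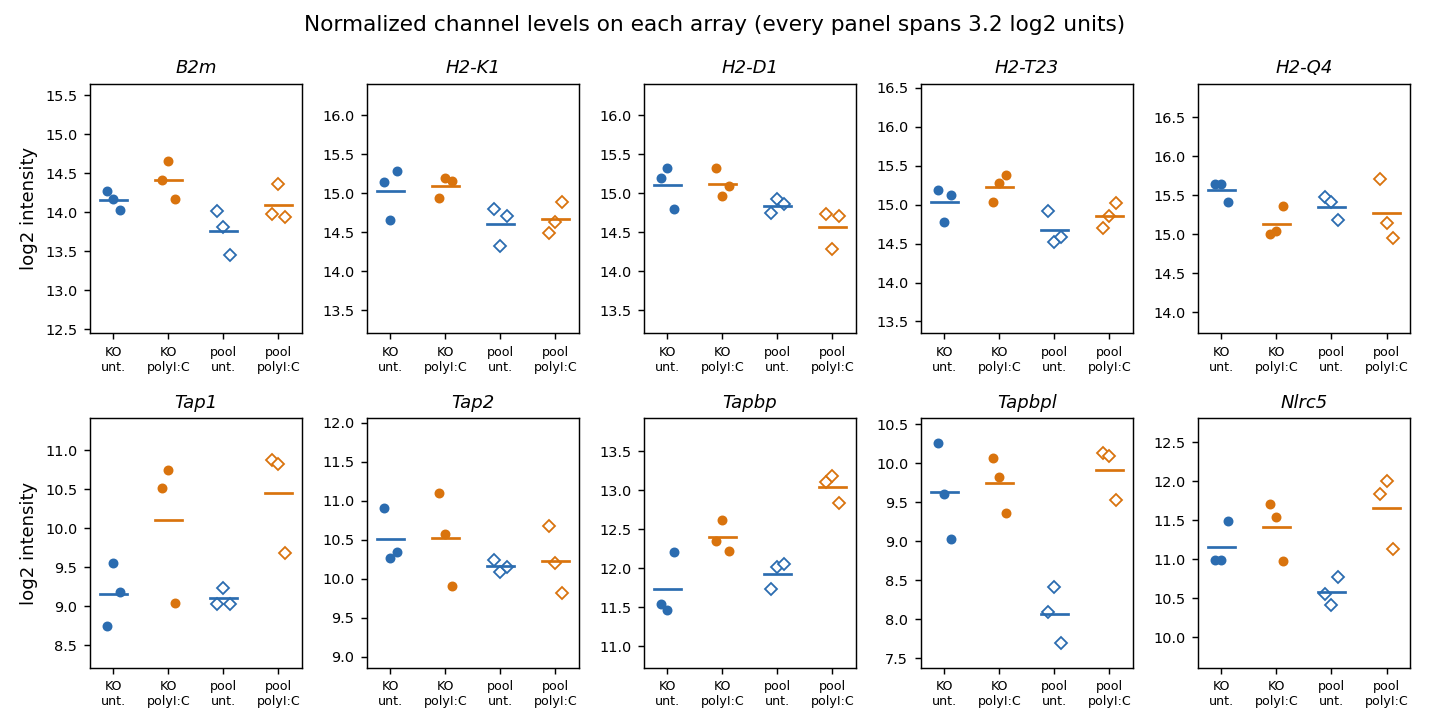
Log2 intensity of each gene on each array after normalization, in Cdk6-/- samples (filled circles, Cy5) and in the wild-type pools (open diamonds, Cy3), untreated in blue and polyI:C in orange, with bars at the mean of 3 readings. Every panel spans the same range of log2 units, and Tapbpl is low only in the untreated pool, at 7.69 to 8.41.

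Nlrc5 had a like pattern with its representing probe. Its pool readings were 10.56, 10.41 and 10.78 untreated and 11.83, 12 and 11.14 with polyI:C, without overlap and 1.07 log2 units apart. The Cdk6-/- levels were 10.99, 10.98 and 11.49 untreated and 11.71, 11.55 and 10.98 treated, a difference of 0.25 (SE 0.34, limma adjusted p = 0.885, n = 3 and 3). The second probe was higher with polyI:C in both, by 1.16 in the pool and by 0.69 in Cdk6-/- samples (adjusted p = 0.497), where 9.01, 8.86 and 9.03 lay below 9.51, 9.88 and 9.58.

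The peptide transporter subunit Tap1 was higher in the treated pool, and its Cdk6-/- levels varied between treated arrays. Its pool readings were 9.03, 9.24 and 9.03 untreated and 10.87, 10.82 and 9.68 treated, a mean 1.36 log2 units or 2.56-fold higher. The Cdk6-/- levels were 8.75, 9.56 and 9.18 untreated and 10.51, 10.75 and 9.04 treated. PolyI:C array 3 was the lowest treated reading in both dyes, and its Cdk6-/- level lay among the untreated ones. The Cdk6-/- difference was 0.94 (SE 0.48, limma adjusted p = 0.567, n = 3 and 3). Within slide 1 it was 1.55 and within slide 2 it was 1.20.

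Among representing probes, that of Tapbp alone had treated levels above all untreated levels in both genotypes, as the second Nlrc5 probe also had. Its pool readings were 11.73, 12.02 and 12.05 untreated and 13.11, 13.19 and 12.84 treated, 1.11 log2 units or 2.16-fold apart. The Cdk6-/- levels were 11.54, 11.46 and 12.21 untreated and 12.35, 12.63 and 12.23 treated, where the lowest treated value just cleared the highest untreated one. Their difference was 0.66 (SE 0.34, limma adjusted p = 0.567, n = 3 and 3). Tap2 overlapped between treatments, with 10.24, 10.09 and 10.15 against 10.68, 10.20 and 9.82 in the pools. In Cdk6-/- samples its difference was 0.02 (SE 0.39, adjusted p = 0.995), but 0.33 without polyI:C array 3, 0.48 within slide 1 and 0.30 within slide 2.

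B2m and the heavy chains were not called between treatments within Cdk6-/- samples. B2m had pool readings of 14.02, 13.81 and 13.45 untreated and 13.98, 14.36 and 13.94 treated, 0.34 higher on average, and Cdk6-/- levels of 14.27, 14.17 and 14.03 against 14.41, 14.65 and 14.17, a difference of 0.25 (SE 0.31, limma adjusted p = 0.872, n = 3 and 3). The groups overlapped in both. H2-K1, H2-D1 and H2-T23 differed with polyI:C by 0.06, -0.27 and 0.18 in the pools and by 0.07, 0.02 and 0.20 in Cdk6-/- samples, with limma adjusted p of 0.906 or more. H2-Q4 had Cdk6-/- levels of 15.64, 15.64 and 15.41 untreated and 15, 15.05 and 15.35 treated, so all treated values were lower, by 0.43 on average (-0.43, SE 0.30, adjusted p = 0.728). In its pools the difference was -0.08, and it turned to 0.13 without normalization between arrays. That setting also moved the pool differences of B2m, H2-K1, H2-D1 and H2-T23 to 0.55, 0.28, -0.05 and 0.41, and those within Cdk6-/- samples to 0.46, 0.28, 0.23 and 0.44, as the all-gene median moved to 0.07 in the pools and to 0.12 in Cdk6-/- samples. The second, dimmer H2-K1 probe was 0.79 higher in the treated pool and 0.43 higher in treated Cdk6-/- samples (limma adjusted p = 0.752). Whether the brightness of the representing heavy chain probes narrows their ratios and their differences with polyI:C was not tested.

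**Figure D4:**
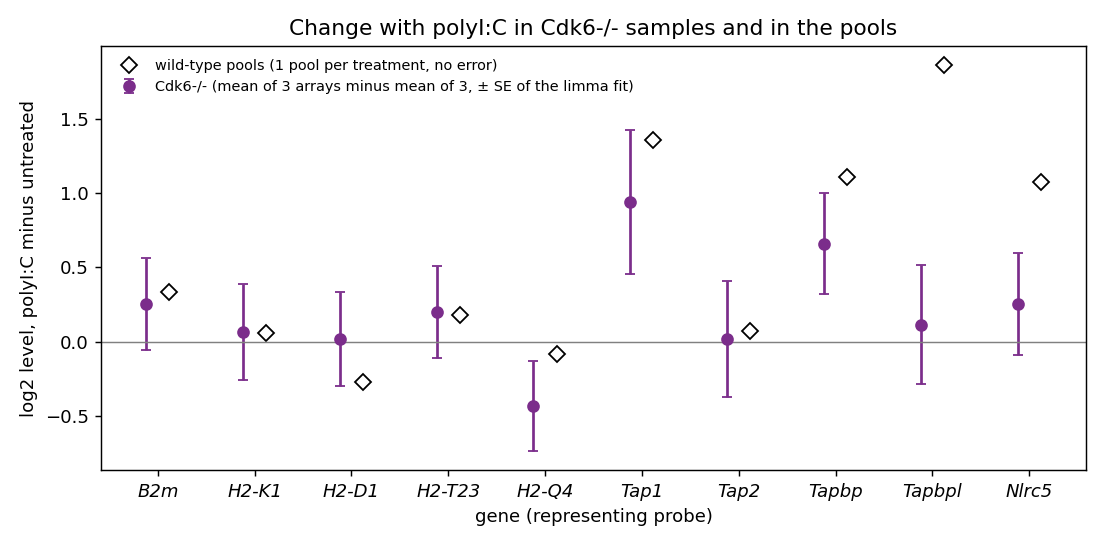
Log2 level with polyI:C minus untreated for each gene, in Cdk6-/- samples (filled circles, mean of 3 minus mean of 3 with the SE of the limma fit) and in the wild-type pools (open diamonds, 1 pool per treatment and therefore no error). The pools are at least 1 log2 unit higher for Tap1, Tapbp, Tapbpl and Nlrc5, and Cdk6-/- samples lie below the pools for these 4.

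In the pools, 4 of 10 members were at least 1 log2 unit higher with polyI:C, against 4.22% of all genes, and the same 4 members had no overlap of readings, against 19.3%. They were Tap1, Tapbp, Tapbpl and Nlrc5, and 8 of 10 were above 0, against 49.8%. The members' median was 0.26 against 0.00 for all genes. With 1 pool per treatment this has no test. In Cdk6-/- samples none of the 10 was called by limma, against 0.106% of all genes called higher and 0.0574% called lower, and none had an unadjusted p under 0.05, against 10.3% of all genes. Of the 10, 9 were above 0, against 52.6%, and 1, Tapbp, had no overlap, against 9.2%. The Cdk6-/- median was 0.16 against 0.03.

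Genes around the family were read from lists. Of the peptide suppliers, the immunoproteasome and its partners, 15 of 17 were tested and none was called in any comparison. Their median was 0.62 higher in the pool with polyI:C than in that without, with 4 genes at least 1 log2 unit higher, and 0.41 higher in treated Cdk6-/- samples. Of all genes 4.22% were at least 1 log2 unit higher in the treated pool, and their medians were -0.003 in the pools and 0.03 in Cdk6-/- samples. The catalytic subunits Psmb8, Psmb9 and Psmb10 were 1.27, 0.74 and 1.22 higher in the treated pool and 0.92, 0.57 and 0.82 higher in treated Cdk6-/- samples. Of the chaperones and trimming enzymes of the endoplasmic reticulum, 17 of 17 were tested and none was called, with medians of 0.29 in the pools and 0.21 in Cdk6-/- samples. Calr, the chaperone calreticulin of the loading complex, was 1.06 and 0.78 higher. Of the other class I heavy chains 11 of 29 were tested. Only H2-K2 was called in them, higher in untreated Cdk6-/- samples (0.69, limma adjusted p = 0.0302), and H2-K2 is close in sequence to H2-K1. That was 1 of 11, against 3.05% of all genes called higher there. Between the pools, 1 of these 11 was at least 1 log2 unit higher with polyI:C and 2 were at least 1 lower.

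**Figure D5:**
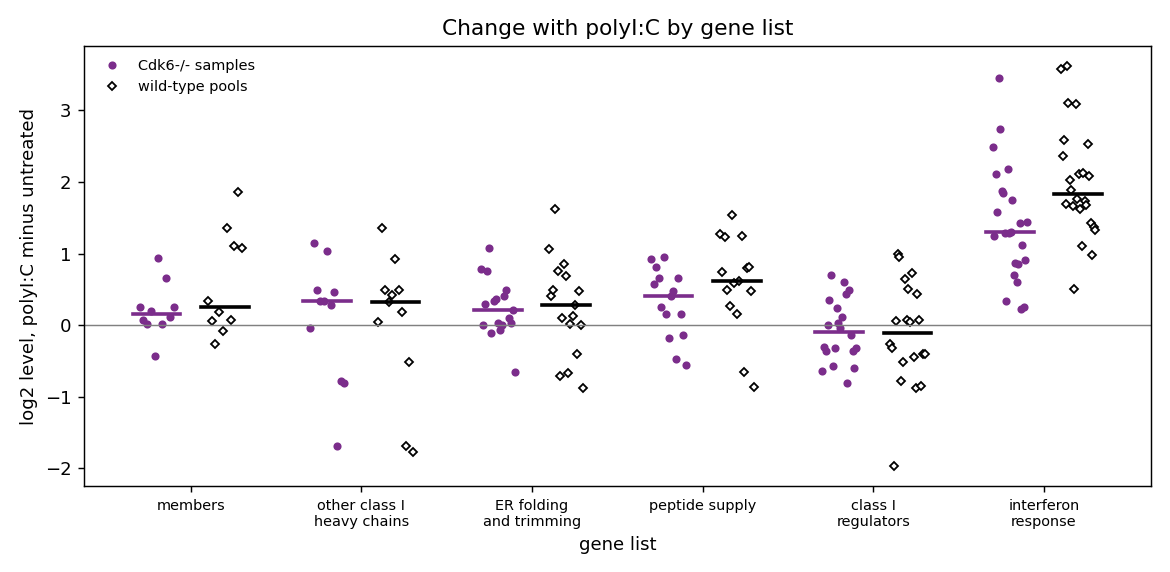
Log2 level with polyI:C minus untreated for every tested gene of the members and of 5 lists, in Cdk6-/- samples (filled circles) and wild-type pools (open diamonds), with bars at the list medians. The interferon response list has medians of 1.30 and 1.83, and the members 0.16 and 0.26.

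Among 20 transcription factors and receptors that act on class I genes, 2 were called, both lower in untreated Cdk6-/- samples, a share near the 9.93% of all genes called lower there. Creb1, which binds the X2 box, was at -1.26 (limma adjusted p = 0.00379), and Irf8, a lineage factor of myeloid and dendritic cells, was at -0.98 (adjusted p = 0.0351). None was called in the other comparisons.

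The interferon response itself was present in both genotypes. Of 24 genes tested of 26, all 24 had a higher mean in treated Cdk6-/- samples, against 52.6% of all genes, with a median of 1.30. In the treated pool 22 were at least 1 log2 unit higher, against 4.22% of all genes, with a median of 1.83. The list's median Cdk6-/- ratio over the pool was 0.14 untreated and -0.45 with polyI:C, against -0.05 and -0.02 for all genes. With polyI:C, 1 of the 24 ratios was above 0. The difference of the ratios between treatments had a median of -0.47, against 0.04 for all genes, and was above 0 in 2 of 24. Irf7, a regulator of type I interferon genes, and Usp18, a brake on interferon signalling, were called within Cdk6-/- samples (3.46 and 2.74, limma adjusted p = 0.0108 and 0.0186). They were 2 of 24 called higher there, against 0.106% of all genes. Both calls were lost, with 0 genes called at all, without untreated array 1, 2 or 3, without polyI:C array 1 and without both arrays numbered 3. Herc6, Ifih1 and Eif2ak2, which encode a ligase for ISG15 and a pair of sensors of double-stranded RNA, passed the tests that Tapbpl passed. They were higher in untreated Cdk6-/- samples (1.15, 0.68 and 0.67, adjusted p = 0.00631, 0.0323 and 0.0271), and their ratios were lower with polyI:C (differences of -1.86, -1.26 and -1.13, adjusted p = 0.0172, 0.0388 and 0.0454). Calls were 3 of 24 higher untreated, against 3.05% of all genes, and 3 of 24 lower in the difference, against 0.199%. These 3 differences were not called with the slide as a fixed block, without polyI:C array 3 or without both arrays numbered 3, where 0 genes were called lower. Cmpk2, a nucleotide kinase, was lower in treated Cdk6-/- samples than in their pool (-0.92, limma adjusted p = 0.0346), 1 of 24 against 0.65% of all genes. That call was lost without both arrays numbered 3, where 0 genes were called in this comparison.

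The genes whose level was most like that of Tap1 over the 12 channel levels were Mrpl16 (r = 0.99), Uchl5 (0.967), Nop2 (0.963), Eif1ax (0.962) and Mitd1 (0.961), among 10496 genes. Those most like B2m were Yrdc (0.933), Smco4 (0.903), Arhgef2 (0.857), Tspan31 (0.855) and Chchd7 (0.854). The levels share arrays and, in Cy3, a pool per treatment, so these values only describe them.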

How the data were processed

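The 6 two-colour arrays were analysed. Per the labels' protocols, RNA was amplified with TransPlex WTA2 and labelled with platinum dyes. The arrays, of an Agilent design annotated on mm9, were read with Feature Extraction 11.5.1.1, per the file headers. The deposited files give each spot's median intensity and background intensity, and processed intensities that the software background-subtracted and dye-normalized. A log10 ratio of processed Cy5 to Cy3, made by the software per the file headers, was deposited beside them, with flags per spot. For probes with a single spot, the deposited value table equals the log2 ratio of processed Cy5 to Cy3 within 2.52e-06. Its log2 scale and its direction were settled from that, and probes with several spots were not compared. Its medians were 0.224, 0.116 and 0.204 untreated and 0.216, 0.179 and -0.0431 with polyI:C, so it was not centred further. No processing of the table by the authors beyond this is given in the sources used here. 0 columns belonged to other samples.

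Median intensities were corrected with normexp (offset 50) and loess in limma 3.58.1. R was version 4.3.3 and statmod 1.5.0. Spots of controls and flagged spots (0.657% of spots) were left out, and spots of a probe were averaged; no spot was saturated. Of 59305 non-control spots per array, 47.0 to 76.5% were well above background in Cy5. Probes well above background in either dye on all 3 arrays of a group were tested (31798; 23883 were dim), and the brightest probe represented a gene (5698 genes had several), giving 22629 genes, 13635 with a symbol. RefSeq (GRCm38.p6) matched 22244 of 23839 accessions; probe positions were not remapped.

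Ratios of all 6 arrays entered a single lmFit and eBayes fit with a mean per treatment, tested against 0 and against each other (4 residual degrees of freedom). The pool counts as 1 control sample, so this leaves out the spread between wild-type samples. Levels within Cdk6-/- were tested on the log2 Cy5 level after loess within and Aquantile between arrays, which quantile-normalizes average intensities. Adjusted p-values are Benjamini-Hochberg's over all genes tested, with a threshold of 0.05; SE is the fit's, SD is over arrays. The pools were compared as values. The ratio fit was also run on simulated data whose changes were larger than those of any member, so that run does not cover smaller changes.

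The members, gene lists and most tests were chosen with earlier results of these data known. All members are named; of the lists, called genes are named, at most 4 per list and comparison, or the leading genes in list order where none is called. Array numbers follow deposition order and pair no samples. Alternatives were median centring, processed signals, an offset of 10, other filters, the mean of a gene's probes, slide as a block, other normalization between arrays, and arrays left out.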

Additional observations from a re-analysis of the deposited data

Results flagged for a closer look

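The difference between treatments in the genotype ratio of Tapbpl is the single result picked out, because a test of the difference itself passed its threshold. The polyI:C ratio minus the untreated ratio was -1.74 (SE 0.30, limma adjusted p = 0.0216, n = 3 and 3). With loess all 3 untreated ratios were above 0 and all 3 polyI:C ratios were below 0. With median centring the polyI:C ratios were 0.20, 0.03 and -0.03. In the pools the level of Tapbpl was 1.86 log2 units higher with polyI:C, and in Cdk6-/- samples it was 0.12 higher. Ratios of some markers of other cell types differed in the other direction, higher with polyI:C than without. Those called were 4 of 11 granulocyte, 2 of 11 monocyte and macrophage, 2 of 10 B cell, 2 of 10 endothelial and stromal and 2 of 10 megakaryocyte and platelet markers, against 1.6% of all genes. Of 14 T and NK cell, 8 dendritic cell and 12 erythroid markers, none was called in either direction. The part of other cell types in the Tapbpl difference was not tested.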

How the results depend on the processing

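No paired analysis was possible because array numbers follow deposition order and the labels give no replicate numbers, and what the number pairs in most sample titles mean is not given. The slide, of which 2 of 3 hold both treatments, was used as a block. The untreated ratio of Tapbpl was called under every alternative run. Members called higher in untreated Cdk6-/- samples numbered 1, but 8 with median centring. They numbered 2 without a filter and with probes bright in both dyes (Nlrc5 and Tapbpl), and 2 with the mean of a gene's probes and with each probe on its own, a choice made after seeing the data (H2-K1 and Tapbpl). Leaving out arrays gave 1 to 2. With polyI:C the count was 0, but 5 with median centring, and leaving out arrays gave 0. The difference between treatments, 1 member, was called in 0 members with the slide as a fixed block and without both arrays numbered 3, and in 0 to 1 when single arrays were left out. Within Cdk6-/- samples the count was 0 in every setting. Counts over all genes ran from 1376 to 6206 (2939 as reported) for the untreated ratio, 0 to 2583 (219) for polyI:C, 0 to 555 (406) for the difference and 0 to 126 (37) within Cdk6-/- samples. With a fixed slide block the difference had 0 calls by limma among 22629 genes and 4439 at an unadjusted p under 0.05. Without polyI:C array 3 it had 6. Median centring gave 2345 genes higher and 238 lower with polyI:C, against 72 and 147. The members' median in the pools, 0.26, was 0.48 without normalization between arrays and 0.47 with processed signals.

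Uncalled values changed sign as follows, and the cause was not tested. With median centring they were 0.30 for Tapbp untreated, 0.0647 for Tapbpl and 0.165 for Nlrc5 with polyI:C, 0.0441 for the B2m difference, and 1.07 for H2-Q4 with polyI:C, now called. With single arrays left out, Tap1 untreated ran from -0.0669 to 0.235 and H2-Q4 with polyI:C from -0.404 to 0.151. For differences between treatments, B2m gave 0.0554 without both arrays numbered 3, 0.00788 within slide 1, and -0.158 to 0.0103 with single arrays left out. H2-K1 gave -0.0993 with processed signals, -0.0206 with offset 10, -0.178 with the mean of probes, -0.36 with its second probe, -0.0196 within slide 1, and -0.0631 to 0.0829 with single arrays left out. H2-T23 gave -0.0734 with processed signals, -0.00375 with offset 10, -0.0672 within slide 1, and -0.027 to 0.114 with single arrays left out. Tap2 gave 0.0771 with a fixed block, 0.19 within slide 2, and -0.134 to 0.106 with single arrays left out. Within Cdk6-/- samples, quantile normalization of Cy5 alone gave -0.00701 for H2-K1, -0.0374 for H2-D1 and -0.0196 for Tap2. Within slides, H2-K1 gave -0.282 and H2-T23 -0.12 (slide 1), and H2-D1 -0.367 (slide 2). H2-D1 gave -0.117 without both arrays numbered 3. With single arrays left out, H2-K1 ran from -0.119 to 0.196, H2-D1 from -0.135 to 0.132, Tap2 from -0.268 to 0.331 and Tapbpl from -0.188 to 0.432. In all, 45 of the alternative values of single members changed sign, and 609 kept direction and call or moved by less than the spread. The number of arrays limits all of this, and the wild-type spread was not measured.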
